A study of Mus musculus with 2 samples.

Results

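A set of 10 genes of calcium handling by the sarcoplasmic reticulum were followed in left ventricle of NRK-2 knockout and control mice. They were listed by symbol (Atp2a2, Pln, Ryr2, Casq2, Trdn, Jph2, Hrc, Asph, Slc8a1 and Fkbp1b), and all 10 were found among the 24542 gene symbols of a table of RefSeq transcripts on mm10. Read counts were summed per symbol, and all 10 genes passed the filter on low counts that left 14466 genes for testing. Of these 10, Hrc fell in the libraries labelled NRK-2 KO, as did 1.09% of all tested genes, and the other 9 missed the threshold. The pump gene Atp2a2 and its inhibitor Pln were lower in each of those libraries than in any control library, as were 14.5% of all tested genes. Their ratio to each other overlapped between genotypes.

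The mice compared were male NRK-2 KO mice and male littermate controls, both C57BL/6. NRK-2 is a nicotinamide riboside kinase of muscle encoded by Nmrk2, and the labels do not say how or in which cells it was removed. In all mice the proximal left anterior descending coronary artery was ligated for good, and tissue was taken 7 days later, so that every group carried an infarct. Total RNA came from ventricle remote from the infarct, without scar or border, and the labels give neither age nor the number of animals per library.

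In a heart muscle cell each beat begins with calcium entry, which opens ryanodine receptors on the sarcoplasmic reticulum and releases the stored calcium onto the myofilaments. The muscle relaxes as the pump SERCA2 returns calcium to the store and the sodium/calcium exchanger carries the rest out of the cell. Phospholamban holds the pump back until it is phosphorylated, and calsequestrin, triadin, junctin and the histidine-rich calcium-binding protein buffer calcium in the lumen and tie the buffer to the release channel. A weakened pump relative to the exchanger has long been described in failing hearts.

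The labels list 1 sample per genotype, whereas the table holds 3 numbered libraries for each, of 26975513 to 33086384 counted reads for NRK-2 KO and 22377348 to 22831189 for control. Nothing says that these libraries came from separate animals, so p-values measure only the spread between libraries, which may be technical. Nmrk2 itself, the check on the labels, had 808, 9 and 0 reads in the libraries labelled KO 1, 2 and 3, against 308, 270 and 118 in control 1, 2 and 3. The library labelled KO 1 therefore goes against its label, and the fit without it kept the direction of every member other than Slc8a1. Control 3 stood apart from the other controls. Its summed level of 14 cardiomyocyte markers outside the sarcoplasmic reticulum was 75189 CPM (read counts scaled by library total and TMM factor), against 127545 and 121002 CPM in control 1 and 2, and the libraries labelled KO were at 49682 to 76827 CPM. None of the 14 was at 0 in any library. Fibroblast markers summed to 28657 to 39767 CPM in NRK-2 KO and 6547 to 18025 CPM in control. Atrial markers summed to 2357 to 3024.5 CPM in NRK-2 KO and 110.0 to 929 CPM in control (Myl7 and Sln at 0 in some libraries), and skeletal muscle markers to 6.77 to 10.9 CPM in NRK-2 KO and 0.649 to 1.42 CPM in control (Myh1, Myh2, Myh4, Actn3 and Mylpf at 0 in some). The sums of these 3 lists did not overlap between genotypes, and their part in the results was not tested. For the 4 atrial markers the median log2 fold change was -0.51, below control, so the higher sum did not hold for every marker. Overlap was seen for macrophage and leukocyte markers (746 to 1002.5 CPM in NRK-2 KO and 307 to 910.0 CPM in control), for endothelial markers (1092 to 1377 CPM in NRK-2 KO and 1052.5 to 1431 CPM in control) and for smooth muscle and pericyte markers (1713 to 1934 CPM in NRK-2 KO and 1403 to 1832 CPM in control). Of the 8 fibroblast, 6 smooth muscle and 6 skeletal muscle markers 1 gene each rose, and no gene of any list fell. In whole tissue, fewer muscle cells and less RNA of a gene per muscle cell cannot be told apart.

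**Figure D1:**
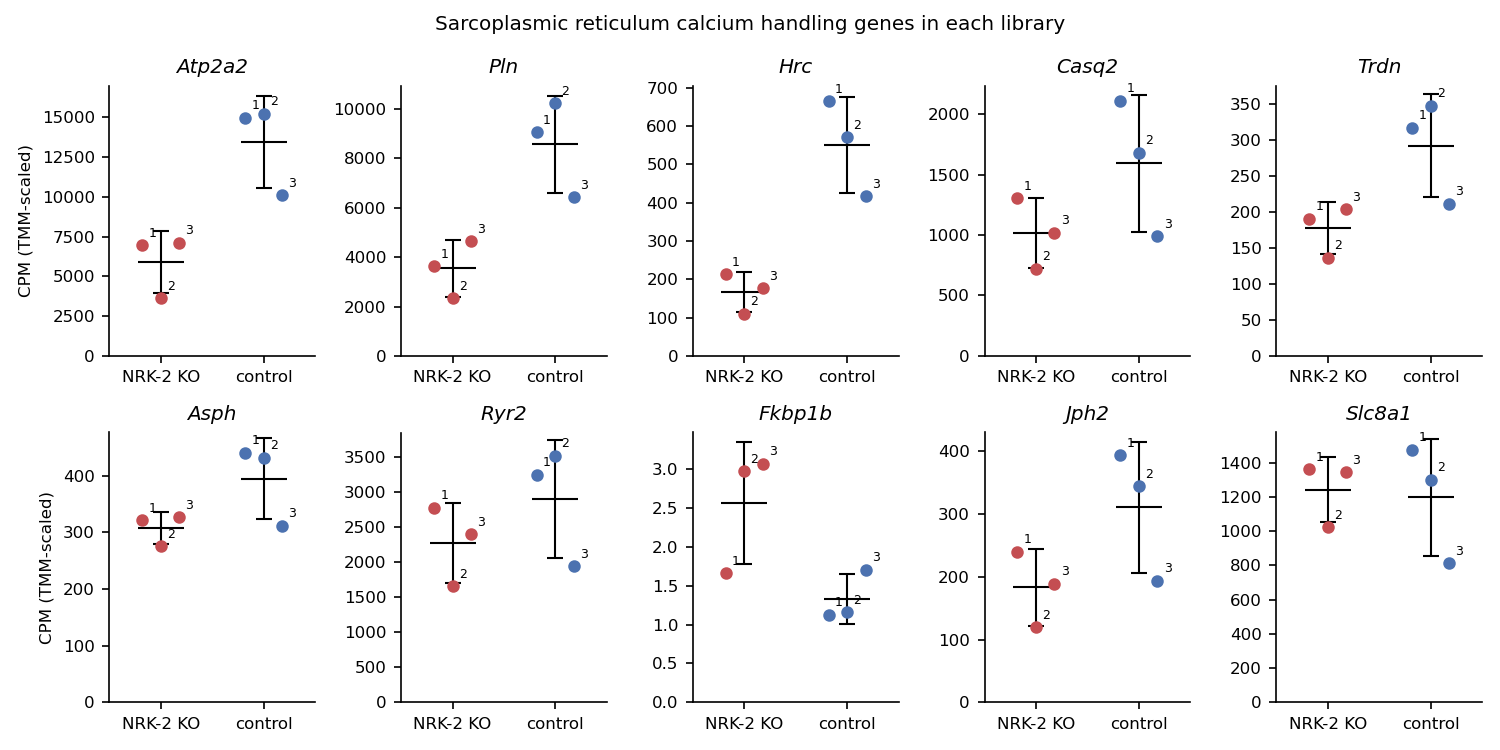
Level of each gene in CPM in the 3 libraries labelled NRK-2 KO (red) and the 3 control libraries (blue), numbered by library. Horizontal lines are means and bars are standard deviations. Atp2a2, Pln, Hrc and Trdn were lower in every library labelled NRK-2 KO than in any control library, as were 14.5% of all tested genes. The other 6 genes overlapped.

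The luminal calcium store was examined first because it held the gene that fell. Hrc (gene ID 15464, chromosome 7 from 45335269 to 45338972, plus strand) encodes the histidine-rich calcium-binding protein, which binds calcium inside the store and also contacts the pump and triadin. It was at 213, 110.3 and 177 CPM in KO 1, 2 and 3, against 665, 571 and 417 CPM in control 1, 2 and 3. Even the lowest control library held nearly as much again as the highest library labelled NRK-2 KO, so the groups lay well apart. The log2 fold change was -1.72 (SE 0.29), or 3.30-fold lower, with an adjusted p of 0.0335 by edgeR's quasi-likelihood test over all genes. It was the only one of the 10 genes past the threshold downward, where 1.09% of all tested genes fell and 2.61% rose. The call was lost without any single library other than control 3 (adjusted p from 0.087 to 0.143), while the log2 fold change stayed between -1.94 (without KO 1) and -1.50 (without KO 2).

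Casq2 (chromosome 3 from 102086455 to 102146512) encodes calsequestrin, the main calcium buffer of the store. It was at 1304, 722 and 1020.1 CPM in KO 1 to 3 and 2112, 1682 and 989 CPM in control 1 to 3. The groups overlapped through control 3, which was below 2 of the 3 libraries labelled NRK-2 KO, and the gene did not pass (edgeR log2 fold change -0.65, SE 0.34, adjusted p = 0.274). The triadin gene Trdn (chromosome 10 from 33083483 to 33476709) encodes an anchor between calsequestrin and the release channel. It was at 191, 136 and 204 CPM in NRK-2 KO and 317, 347.5 and 211 CPM in control. These groups did not overlap, but KO 3 and control 3 lay close together and the threshold was missed (edgeR adjusted p = 0.121 at a log2 fold change of -0.72, SE 0.24). D830005E20Rik is a gene within the Trdn locus, at 28.2, 14.45 and 28.6 CPM in NRK-2 KO and 51.8, 44.8 and 27.2 CPM in control. The sources used here do not say whether counting used the strand, and reads of Trdn and this gene may have been mixed.

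Upstream sequences are shown for Hrc, which fell, for Casq2, which serves beside it in the lumen and missed the threshold, and for Pln, which followed the pump gene. Each is the stretch of 250 bases before the annotated start (RefSeq, GRCm38.p6), at chr7:45335019-45335268 and chr3:102086165-102086414 and chr10:53337436-53337685, all on the plus strand. Capitals mark matches on either strand to 5 motifs, which do not overlap in these windows. The MEF2-like motif was searched as CTAAAAAT and the E-box as CAGCTG. The motif of GATA factors was searched as AGATAA. The GC box was searched as GGGCGG, and the TATA box with the letters TATAAA.
Hrc: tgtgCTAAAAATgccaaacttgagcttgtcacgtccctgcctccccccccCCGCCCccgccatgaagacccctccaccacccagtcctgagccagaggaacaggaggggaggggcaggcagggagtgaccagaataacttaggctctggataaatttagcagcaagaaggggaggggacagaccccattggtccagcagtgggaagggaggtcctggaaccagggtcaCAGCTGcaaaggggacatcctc
Casq2: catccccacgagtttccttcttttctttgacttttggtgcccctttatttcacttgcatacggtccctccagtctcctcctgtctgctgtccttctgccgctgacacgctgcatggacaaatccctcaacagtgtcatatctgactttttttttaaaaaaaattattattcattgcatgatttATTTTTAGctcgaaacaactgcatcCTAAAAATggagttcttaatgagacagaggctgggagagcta
Pln: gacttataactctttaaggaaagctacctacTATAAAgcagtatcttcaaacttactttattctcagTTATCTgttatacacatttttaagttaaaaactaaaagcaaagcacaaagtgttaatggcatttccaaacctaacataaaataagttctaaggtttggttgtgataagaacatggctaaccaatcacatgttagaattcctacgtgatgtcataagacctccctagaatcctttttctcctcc
The MEF2-like letters, which belong to a family of muscle transcription factors, were found before Hrc and Casq2, and in 1.01% of 32851 such windows. Sequences were found for 7 of the 10 genes, and the other 5 did not hold these letters. The E-box stood before Hrc and Jph2 (13.0% of windows), the GATA letters before Pln and Slc8a1 (9.99%), the GC box before Fkbp1b, Hrc and Jph2 (32.7%) and the TATA box before Pln alone (12.4%). No member held a CArG box, the binding motif of serum response factor, which was in 1.47% of windows. These are matches of letters only.

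Asph (chromosome 4 from 9449085 to 9669344, minus strand) gives rise to several proteins, among them a full-length aspartate beta-hydroxylase and the short junctin, which anchors calsequestrin and lacks the enzyme domain. Summed over 11 transcripts it was at 321, 275 and 327 CPM in KO 1 to 3 and 441, 432 and 312 CPM in control 1 to 3, with overlap, and did not pass (edgeR adjusted p = 0.249 at a log2 fold change of -0.36, SE 0.18). The share of single transcripts differed more than the sum. Variant 2, which codes for 207 residues, the shortest product listed, held 14.5, 8.39 and 12.3% of Asph reads in KO 1 to 3, against 23.8, 23.3 and 23.5% in control 1 to 3. The control shares lay within 1 percentage point of each other, and every library labelled NRK-2 KO was far below them. How often transcript shares of other genes lay apart in this way was not counted. The means were 11.8 ± 3.12% in NRK-2 KO and 23.6 ± 0.242% in control (SD, n = 3 libraries each), with p = 0.1 in a two-sided exact permutation test, the smallest that 3 against 3 libraries allow.

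Transcripts were also grouped by start and product, a grouping made after the values had been seen, so the classes are described and not tested. The 4 short transcripts that begin at the inner start (variants 2, 6, 7 and 9) took 43.9, 37.8 and 45.9% of Asph reads in NRK-2 KO and 54.9, 57.9 and 56.8% in control. Without variant 2 the other 3 took 29.4, 29.4 and 33.6% in NRK-2 KO and 31.1, 34.6 and 33.3% in control, which overlap, so the class difference was mostly that of variant 2. The 3 transcripts that code for more than 600 residues, of the hydroxylase length, took 46.1, 50.7 and 42.5% of Asph reads in NRK-2 KO and 34.2, 33.9 and 37.6% in control. A larger share there was not a clearly higher level. In CPM these long transcripts were at 148, 139 and 139 in NRK-2 KO and 151, 147 and 117 in control, with overlap. In FPKM (the deposited length- and depth-scaled level) they were at 22.6, 22.3 and 20.8 in NRK-2 KO and 20.3, 19.9 and 18.9 in control, narrowly without overlap. Division of reads among Asph transcripts varied within a genotype, variant 11 having 2272, 818 and 0 reads in NRK-2 KO and 0, 595 and 1312 in control, so values of single variants are uncertain.

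**Figure D2:**
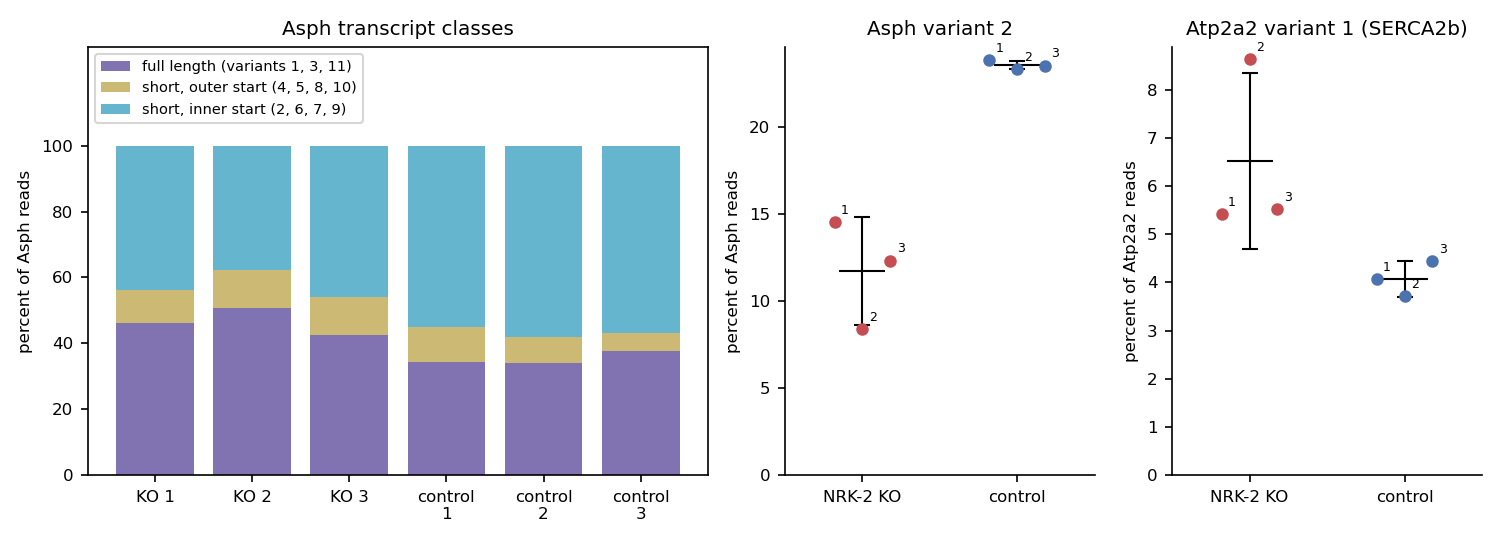
Left, percent of Asph reads on 3 classes of transcript in each library. Middle and right, the share of Asph variant 2 among Asph reads and of Atp2a2 variant 1 among Atp2a2 reads, with points for libraries, lines for means and bars for standard deviations. Asph variant 2 had 8.39 to 14.5% in NRK-2 KO and 23.3 to 23.8% in control.

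The pump and its inhibitor come next. Atp2a2 (chromosome 5 from 122453513 to 122502225, minus strand) encodes SERCA2, and was at 6957, 3634 and 7128 CPM in KO 1, 2 and 3, against 14985, 15234 and 10114 CPM in control 1, 2 and 3. Every library labelled NRK-2 KO was below every control library, with KO 2 the lowest of all and control 3 the lowest control. The means were 5906 ± 1970 CPM in NRK-2 KO and 13444 ± 2887 CPM in control (SD, n = 3 libraries each). The log2 fold change of -1.19 (SE 0.35) missed the threshold (adjusted p = 0.0976 by edgeR). Pln (chromosome 10 from 53337686 to 53345999), which encodes phospholamban, was at 3641, 2336 and 4652 CPM in NRK-2 KO and 9055, 10242 and 6424 CPM in control. The 6 libraries stood in the same order as for Atp2a2, again without overlap (edgeR adjusted p = 0.0787 at a log2 fold change of -1.27, SE 0.33). Without KO 1 the log2 fold changes were -1.32 for Atp2a2 and -1.30 for Pln. Cep85l, whose locus spans Pln, was at 17.8 to 20.5 CPM in NRK-2 KO and 20.4 to 22.8 CPM in control, far under the level of Pln.

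The ratio of Pln to Atp2a2 within a library needs no scaling between libraries. In read counts it was 0.523, 0.643 and 0.653 in KO 1 to 3 and 0.604, 0.672 and 0.635 in control 1 to 3. Per length, from FPKM, it was 0.959, 1.18 and 1.20 in NRK-2 KO and 1.11, 1.23 and 1.17 in control, so the transcripts of inhibitor and pump were present in similar amounts. KO 1 had the lowest value and the remaining 5 libraries overlapped. The mean log2 ratio differed by -0.08 (p = 0.7, two-sided exact permutation test), and leaving out 1 library moved this difference between -0.13 and 0.02, the value 0.02 being that without KO 1. Over the same libraries the level of each gene alone ranged 4.19-fold (Atp2a2) and 4.39-fold (Pln) from lowest to highest CPM.

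The shares of the splice forms of the pump differed by a few percentage points. Variant 2, coding for the 998 residues of SERCA2a, the form of heart muscle, held 94.4, 91.2 and 94.2% of Atp2a2 reads in NRK-2 KO and 95.5, 96.1 and 95.0% in control. Variant 1 codes for the 1044 residues of SERCA2b, the form made in most cell types. It held 5.41, 8.64 and 5.52% in NRK-2 KO and 4.06, 3.71 and 4.44% in control, without overlap (p = 0.1, exact permutation test). KO 2 carried much of this, the difference of 2.5 percentage points being 1.4 without it, and that of variant 2 being -1.2 in place of -2.2. In level per length, variant 2 was at 1525, 814 and 1553 FPKM in NRK-2 KO and 2982, 3053 and 2355.5 FPKM in control. Variant 1 was at 83.8, 73.9 and 87.1 FPKM in NRK-2 KO and 121, 113 and 106 FPKM in control, so that both forms were lower, SERCA2b by less. Fibroblast marker sums, given above, were also higher in every library labelled NRK-2 KO, and their part in these shares was not tested. Pln variant 1, which codes for the same 52 residues as variant 2, likewise held 6.31, 8.13 and 6.81% of Pln reads in NRK-2 KO and 5.29, 5.66 and 5.06% in control. In all, 12 transcripts of 4 genes were compared by share, and none could pass the threshold in this design. No share over all transcripts was set beside those without overlap, so how unusual they are cannot be judged.

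**Figure D3:**
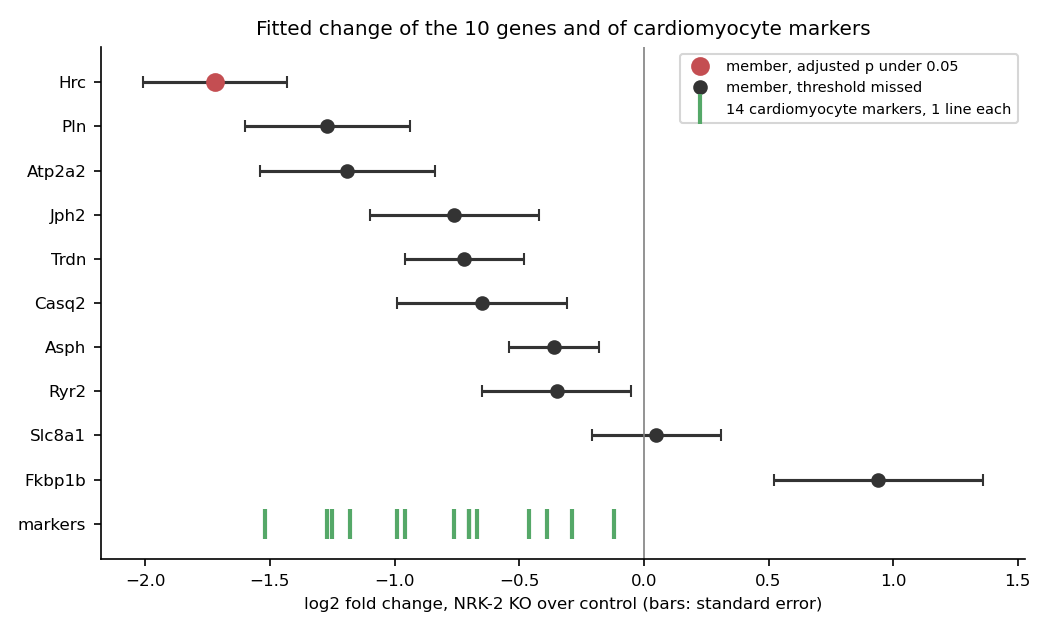
Log2 fold change of NRK-2 KO over control from edgeR for each of the 10 genes, with bars for 1 standard error, and for the 14 cardiomyocyte markers in the bottom row. Hrc at -1.72 is the only filled red point, and the markers lie between -1.52 and -0.12.

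The release channel showed a smaller difference than the pump. Ryr2 (chromosome 13 from 11553103 to 12106945, minus strand) encodes the cardiac ryanodine receptor. It was at 2779, 1654 and 2396 CPM in KO 1 to 3 and 3247, 3518 and 1944 CPM in control 1 to 3, and control 3 lay between the libraries labelled NRK-2 KO. The gene missed the threshold (edgeR adjusted p = 0.507 at a log2 fold change of -0.35, SE 0.30). Fkbp1b (chromosome 12 from 4833174 to 4841595, minus strand) encodes FKBP12.6, which binds and stabilises the channel. Its counts were low, at 48, 106 and 84 reads in NRK-2 KO and 23, 24 and 42 reads in control. These are 1.66, 2.97 and 3.07 CPM in NRK-2 KO and 1.13, 1.16 and 1.70 CPM in control, with KO 1 just under control 3. It was one of 2 members with a fitted level above control, but missed the threshold (edgeR adjusted p = 0.212 at a log2 fold change of 0.94, SE 0.42). Its paralog Fkbp1a, which encodes FKBP12 and was on the wider list below, stood per length far above it, at 56.8, 51.7 and 47.8 FPKM in NRK-2 KO and 31.5, 35.0 and 29.5 FPKM in control, against 1.69, 3.19 and 3.11 FPKM in NRK-2 KO and 1.02, 1.05 and 1.81 FPKM in control for Fkbp1b. Fkbp1a had a log2 fold change of 0.57 (adjusted p = 0.0905 by edgeR). The libraries labelled NRK-2 KO were all above the control libraries for Fkbp1a, as for 16.4% of all genes.

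Jph2 (chromosome 2 from 163336242 to 163397993, minus strand) encodes junctophilin, which holds the store membrane against the T-tubule. It was at 240, 119 and 189 CPM in NRK-2 KO and 393, 344 and 194 CPM in control. Control 3 again lay among the libraries labelled NRK-2 KO, and the threshold was missed (edgeR adjusted p = 0.211 at a log2 fold change of -0.76, SE 0.34). Its variants 1 and 2 code for the same 696 residues. Variant 1 held 52.9 to 64% of Jph2 reads in 5 libraries but 98.9% in control 1, where only 89 reads were given to variant 2.

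The exchanger gene stood at similar levels in both genotypes. Slc8a1 (chromosome 17 from 81373105 to 81738387, minus strand) encodes the sodium/calcium exchanger NCX1, and was at 1361, 1024 and 1343 CPM in KO 1 to 3 and 1477, 1299.8 and 815 CPM in control 1 to 3. The groups overlapped widely, with the lowest and the highest library both in control. The log2 fold change was 0.05 (SE 0.26, adjusted p = 0.92 by edgeR), and -0.02 without KO 1. Variant A, coding for 970 residues, held 90.5 to 93.8% of its reads in NRK-2 KO and 90.9 to 94.4% in control.

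Across the 10 genes, 8 had a lower and 2 a higher fitted level in NRK-2 KO, with a median log2 fold change of -0.69, against 0.01 over all 14466 genes. The median of the 14 cardiomyocyte markers outside the sarcoplasmic reticulum was -0.73, close to that of the 10 genes, and all 14 had a lower fitted level. In CPM, 4 of the 10 were lower in every library labelled NRK-2 KO than in any control library, as were 14.5% of all genes, and none was higher in every one, as 16.4% were. In FPKM, Asph joined these 4, and 14.4% of all genes were lower and 17.8% higher in every library labelled NRK-2 KO. At an unadjusted p of edgeR under 0.05 there were 4 of the 10 (Atp2a2, Pln, Trdn and Hrc) and 25.9% of all genes. The number that fell depended on control 3 and on the test. Without control 3 it was 6 (Atp2a2, Pln, Trdn, Jph2, Hrc and Asph, where 12.9% of all genes fell), and with DESeq2 4 (Atp2a2, Pln, Trdn and Hrc, where 9.32% fell). It was 0 without any other single library, where 0.0679% (KO 1), 0.0686% (KO 2), 0% (KO 3), 0.0268% (control 1) and 0% (control 2) of all genes fell.

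Because the cardiomyocyte marker sum differed among libraries, control 3 included, each gene was also set against the summed reads of those 14 markers in the same library, a comparison chosen after the data had been seen. The genes then separated into 3 sets. Hrc had 2.94, 2.22 and 2.30 reads per 1000 marker reads in KO 1 to 3 and 5.21, 4.72 and 5.55 in control 1 to 3, with control 3 now the highest. Pln had 50.2, 47.0 and 60.6 per 1000 marker reads in NRK-2 KO and 71.0, 84.6 and 85.4 in control. Atp2a2 had 96.0, 73.1 and 92.8 in NRK-2 KO and 117, 126 and 135 in control. For these 3 genes every library labelled NRK-2 KO was below every control library, as for 3.33% of all genes, with log2 differences of -1.06, -0.61 and -0.54 in the order given.

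Casq2, Trdn and Jph2 overlapped in this measure. Trdn had 2.63, 2.74 and 2.66 reads per 1000 marker reads in NRK-2 KO and 2.49, 2.87 and 2.81 in control, and the log2 differences of the 3 genes were 0.07, -0.02 and -0.07 in the order named. Ryr2, Slc8a1, Asph and Fkbp1b were higher in every library labelled NRK-2 KO, as were 35.9% of all genes. Asph and Fkbp1b were so only narrowly. Asph had 4.43, 5.54 and 4.25 per 1000 marker reads in NRK-2 KO and 3.45, 3.57 and 4.15 in control. Fkbp1b, with few reads, had 0.0229, 0.0597 and 0.0399 in NRK-2 KO and 0.00885, 0.00956 and 0.0227 in control. Slc8a1 had 18.8, 20.6 and 17.5 per 1000 marker reads in NRK-2 KO and 11.6, 10.7 and 10.8 in control, a log2 difference of 0.78. Ryr2 had 38.3, 33.3 and 31.2 in NRK-2 KO and 25.5, 29.1 and 25.9 in control, a log2 difference of 0.35. Each of the 7 genes without overlap had p = 0.1 in the exact permutation test, the smallest possible. The markers themselves are not a fixed standard, since their own log2 fold changes ran from -1.52 (Tnni3) to -0.12 (Mybpc3). That range holds the log2 fold changes of Pln (-1.27) and Atp2a2 (-1.19), but not that of Hrc (-1.72).

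**Figure D4:**
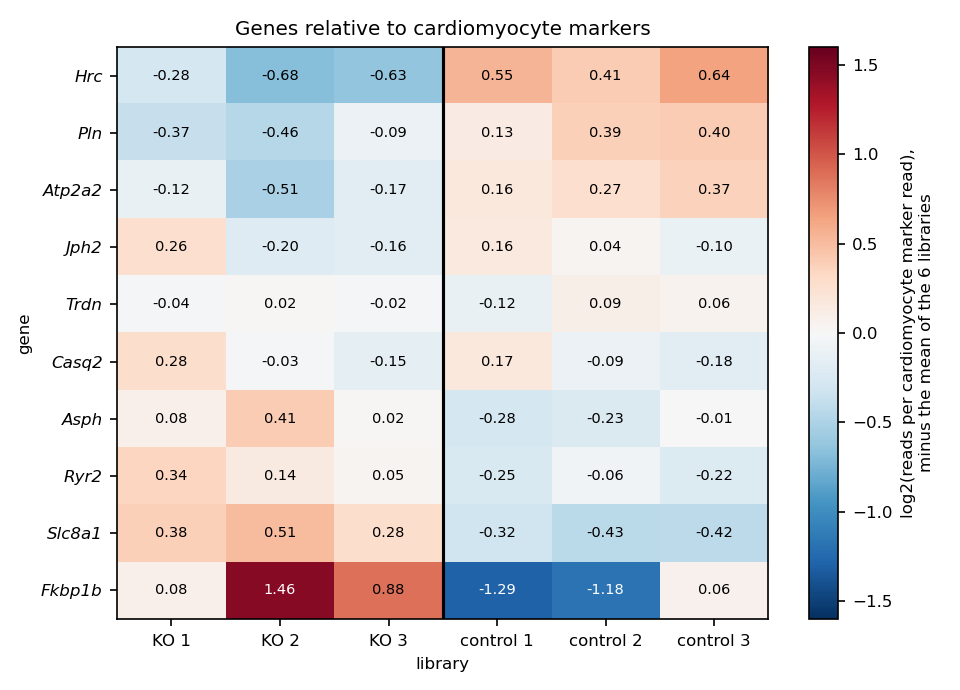
Reads of each gene per read of the 14 cardiomyocyte markers, as log2 minus the mean of the 6 libraries, by library. Hrc, Pln and Atp2a2 are below their mean in all 3 libraries labelled NRK-2 KO and above it in all controls. For Slc8a1 and Ryr2 the order is the other way round.

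Ratios to the pump gene restate these values on another base, since dividing by Atp2a2 moves every gene by the same amount in a library. Slc8a1 to Atp2a2, in levels per length, was 0.0457, 0.0662 and 0.0442 in KO 1 to 3, against 0.0230, 0.0200 and 0.0188 in control 1 to 3, 2.49-fold higher on average. The lowest of the libraries labelled NRK-2 KO stood far above the highest control library. Ryr2 to Atp2a2 was 0.103, 0.117 and 0.0865 in NRK-2 KO and 0.0558, 0.0594 and 0.0495 in control, 1.85-fold higher. Casq2 to Atp2a2 was 0.323, 0.342 and 0.246 in NRK-2 KO and 0.243, 0.190 and 0.168 in control, 1.52-fold higher with KO 3 only just above control 1. Hrc was the only member with the opposite order, at 0.0546, 0.0541 and 0.0441 in NRK-2 KO and 0.0790, 0.0666 and 0.0735 in control. Each of these 4 ratios had p = 0.1 in the exact permutation test. Most genes shared the upward order, 75.2% of all tested genes standing higher relative to Atp2a2 in every library labelled NRK-2 KO, whereas 0.532% stood lower in every one, as Hrc did.

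**Figure D5:**
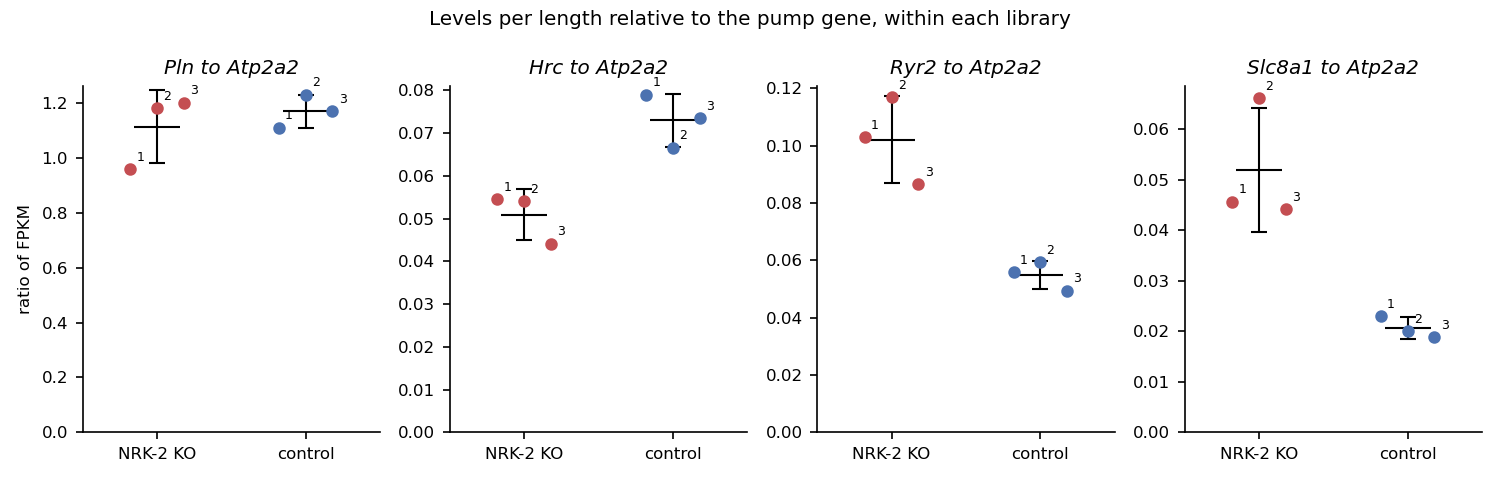
Ratio of FPKM of Pln, Hrc, Ryr2 and Slc8a1 to that of Atp2a2 in each library, with means and standard deviations. The ratio of Pln overlaps between genotypes, at 0.959 to 1.20 in NRK-2 KO and 1.11 to 1.23 in control, while the other 3 ratios do not overlap.

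By level per length, Pln and Atp2a2 were the most abundant of the 10 transcripts in every library. Means were 1519 ± 459 FPKM in NRK-2 KO and 3413 ± 512.5 FPKM in control for Pln, and 1381 ± 426 FPKM in NRK-2 KO and 2919 ± 388 FPKM in control for Atp2a2. Casq2 came next at 409.5 ± 108 FPKM in NRK-2 KO and 591 ± 170.0 FPKM in control. Hrc followed Casq2 in control at 213 ± 32.2 FPKM, above Ryr2 at 161.5 ± 34.6 FPKM, but was lower than Ryr2 in NRK-2 KO, at 69.5 ± 20.1 against 137 ± 30.9 FPKM. The change of order held in each library, Hrc being above Ryr2 in all 3 controls and below it in all 3 libraries labelled NRK-2 KO. Over all 6 libraries Asph lay between 80.6 and 136 FPKM, Slc8a1 between 46.6 and 73.6 FPKM, Jph2 between 30.1 and 83.5 FPKM and Trdn between 32.0 and 69.25 FPKM. The ranges of Slc8a1, Jph2 and Trdn overlapped, and Fkbp1b was the lowest of the 10 in every library.

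A wider list of 67 genes of calcium handling placed these genes among their partners. Of 63 that could be tested, 0 rose and 1 fell, where 2.61% of all genes rose and 1.09% fell, so the count called was near the background. The median log2 fold change was -0.28, with 43 genes lower and 20 higher in fitted level, against 7089 lower and 7377 higher among all 14466 genes. The gene that fell was Camk2a, 1 of the subunit genes of the calcium/calmodulin kinase family. It was at 13.3, 10.2 and 14.4 CPM in NRK-2 KO and 31.3, 31.3 and 21.5 CPM in control (edgeR adjusted p = 0.0405 at a log2 fold change of -1.15, SE 0.21), and lost the call without any single library other than control 3 (adjusted p from 0.0942 to 0.168). Camk2b, of the same family, was at 7.56, 7.84 and 7.01 CPM in NRK-2 KO and 18.4, 12.6 and 9.62 CPM in control (adjusted p = 0.101 by edgeR). Prkaca, a catalytic subunit of protein kinase A, which phosphorylates phospholamban, was at 151 ± 20.8 CPM in NRK-2 KO and 243.5 ± 58.4 CPM in control (adjusted p = 0.104 by edgeR). The median over 13 genes of calmodulin and these kinases was -0.28, with 1 gene that fell. The other subunit genes of the calcium/calmodulin kinase on the list, Camk2b, Camk2d and Camk2g, did not pass.

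Of 11 tested genes of other SERCA pumps and of pump regulators none passed the test. Their median log2 fold change was -0.60, with a lower fitted level for all 11 and 1 of them lower in every library labelled NRK-2 KO than in any control library. Ppp1r3a, a glycogen-targeting subunit of protein phosphatase 1, was at 236, 135 and 259 CPM in NRK-2 KO and 450, 447 and 321 CPM in control (adjusted p = 0.0932 by edgeR). Sarcolipin, the pump inhibitor of atrial muscle encoded by Sln, was at 25.4, 0.364 and 0 CPM in KO 1 to 3 and 25.7, 18.9 and 0 CPM in control 1 to 3. It was thus present in some libraries of either genotype and all but missing in others. Of 16 release channel, store and coupler genes none passed (median -0.22), with Casq1, the skeletal calsequestrin, at 15.2, 5.51 and 3.76 CPM in NRK-2 KO and 36.8, 39.6 and 6.21 CPM in control, and Tmem38a, a counter-ion channel of the store, at 219 ± 71.7 CPM in NRK-2 KO and 419 ± 127 CPM in control (adjusted p = 0.209 and 0.137 by edgeR).

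Of 12 genes of the T-tubule and calcium entry none passed (median -0.14). Tcap, the titin cap protein telethonin, was at 299, 159 and 370 CPM in NRK-2 KO and 774, 821 and 470 CPM in control, and Cacnb2, a subunit of the L-type calcium channel, at 50.6 ± 15.3 CPM in NRK-2 KO and 90.5 ± 14.4 CPM in control (adjusted p = 0.0844 and 0.0995 by edgeR). Of 11 genes of calcium extrusion and mitochondrial uptake none passed (median -0.14). Fxyd1, which encodes phospholemman, was at 62.2 ± 13.5 CPM in NRK-2 KO and 106 ± 28.9 CPM in control (SD, n = 3 libraries each, edgeR adjusted p = 0.121). Over the whole wider list 11 genes were lower and 7 higher in every library labelled NRK-2 KO, against 14.5% and 16.4% of all genes. Without control 3, 19 of these genes fell and 4 rose, against 12.9% and 11.6% of all genes. With DESeq2, 14 fell and 2 rose, against 9.32% and 7.74% of all genes.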

How the data were processed

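Left ventricular total RNA of 2 labelled samples, 1 per genotype, was sequenced from stranded TruSeq libraries, per the labels. Per the submitters' processing notes, HISAT2, Bowtie2 and mm10 were used, with neither role nor version stated. The sources used here do not give the counting program. The authors deposited whole-number read counts and FPKM values for 36780 RefSeq transcripts, with transcript lengths in bases as another property. Columns beginning with C were given to control and those beginning with KO to NRK-2 KO.

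Counts were summed per gene symbol and tested by the quasi-likelihood test of edgeR 4.0.16 (R 4.3.3) after filterByExpr and TMM scaling, with Benjamini-Hochberg adjusted p-values over all genes and a threshold of 0.05. Ratios and transcript shares were tested by exact permutation (scipy 1.17.1). Alternatives used DESeq2 1.42.0 and limma 3.58.1. Coding lengths and strands came from GENCODE M21 (GRCm38, the build of mm10), and transcript starts from the deposited transcript loci. Named genes were the 10 members, Nmrk2, and of the wider list each gene past the test and the 2 others per sublist with the largest change at a mean of at least 5 CPM, plus Fkbp1a, chosen after its values were seen. The result of 1 gene that this rule names is not reported here. The members and lists were chosen with earlier results of these data known. Pairs of libraries of a genotype had a median chi-square of 3.88 to 19.1 at 1 degree of freedom over genes with at least 50 reads. The count test was tested on simulated data with known changes. It recovered 35 of 100 changes of 2-fold and 96 of 100 changes of 4-fold, and called 14 unchanged genes.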

Additional observations from a re-analysis of the deposited data

How the results depend on the processing

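Each member other than Slc8a1 kept the direction of its fitted fold change in every alternative fit. Over the fits that left out 1 library each, the genes that rose numbered 3 to 1719 and those that fell 0 to 1909, against 378 and 157 with all 6, and the members that fell numbered 0 to 6, against 1. DESeq2 called 1120 genes up, 1348 down and 4 members down, and limma on log2(FPKM + 1) and log2(FPKM + 0.1) called 335 and 306 genes down. With the library number as a replicate block, 6 genes rose and 0 genes and 0 members fell (edgeR, with 2838 genes and 3 members at an unadjusted p under 0.05), and Hrc had an adjusted p of 0.125. Deviations of same-numbered libraries correlated at 0.31, -0.33 and -0.35, and those of libraries with unlike numbers from -0.52 to 0.58. With 3 libraries per genotype these values cannot decide whether the numbers pair the libraries. Slc8a1 ran from -0.16 to 0.23, below 0 without KO 1 and KO 3 (-0.02 each) and control 3. Nmrk2 ran from -6.29 (without KO 1) to 0.35, above 0 without KO 2, KO 3 (0.35 each) and control 1 (0.08). The log2 difference of Pln to Atp2a2 ran from -0.13 to 0.02. Relative to cardiomyocyte markers, Trdn moved to 0.08 and Jph2 to 0.03 with the mean over single markers, and leaving out single libraries gave -0.06 to 0.16 for Casq2, -0.09 to 0.02 for Trdn and -0.22 to 0.01 for Jph2. Over left-out libraries, differences in transcript share ran from -16.7 to 6.3 percentage points (Jph2 variant 1) and -6.3 to 16.7 (variant 2), and from -0.9 to 4.9, -3.7 to 8.5 and -3.4 to 1.7 for Asph variants 3, 11 and 6, the last at 2.9 as a share of FPKM. The cause was not tested in any of these cases.

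Depth limits Fkbp1b most, whose libraries held 23 to 106 reads, and where none was counted up to 3 could have been missed. With 3 libraries per genotype the exact test cannot go below 0.1, and with 1 library left out it cannot go below 0.2.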
